A study of Homo sapiens with 7 samples.

Results

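The 66 genes described here encode heat shock chaperones of the cytosol and the mitochondria, and they were measured in melanoma cells in which the long non-coding RNA GRASLND was lowered. They were chosen by gene symbol alone from the 21305 genes measured. Symbols of the HSPA, HSPB, HSPD, HSPE, HSPH and HSP90A families, of the DNAJA, DNAJB and DNAJC families and of the chaperonin subunits CCT2 to CCT8 were taken, which gave 21 HSP, 37 DNAJ and 8 CCT genes. Left out were 19 pseudogenes and the endoplasmic reticulum (ER) chaperones HSPA5, HSP90B1, DNAJB9, DNAJB11 and DNAJC3. Choice by symbol also took in genes that do not match the description in full. HSPA13, DNAJC1, DNAJC10, DNAJC16, DNAJB12 and DNAJB14 encode proteins of the ER or its membrane, HSPB11 encodes a subunit of the intraflagellar transport machinery, and HSPBP1 and HSPBAP1 encode proteins that bind chaperones.

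RNA was sequenced from 501Mel, a human melanoma line of melanocytic character, 3 days after doxycycline had been added to switch on a short hairpin RNA. The control hairpin (shlacZ, 3 libraries) matches lacZ, a gene of bacteria, and the hairpins sh4 and sh8 (2 libraries each) were directed against GRASLND. Every library, controls included, came from doxycycline-treated cells that carried an integrated hairpin cassette and, according to the methods of the study, had been selected as stable pools with puromycin rather than as single clones. The labels do not say whether replicates of a group were separate cultures, so p-values measure the spread between these libraries, which may be technical.

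Heat shock chaperones bind unfolded stretches of other proteins and let them fold, move or be degraded. HSP70 proteins (HSPA genes) cycle between ATP and ADP. J proteins (DNAJ genes) deliver clients and trigger ATP hydrolysis, and HSP110 proteins (HSPH1, HSPA4) act as exchange factors that release ADP. HSP90 completes the folding of kinases and steroid receptors, among them kinases that melanoma cells depend on, and the ring-shaped chaperonin TRiC, built of TCP1 and the CCT subunits, folds actin and tubulin. In mitochondria, HSPA9 pulls in and folds imported proteins, and HSPD1 with its lid HSPE1 forms a folding chamber. Heat and other stresses that unfold proteins raise many of these genes through the transcription factor HSF1, which binds inverted repeats of nGAAn called heat shock elements.

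Promoter stretches are shown for some of the members whose window held one of the motifs searched. RefSeq windows of 250 bases before to 50 bases after the start (GRCh38.p14) were at hand for 60 of the 66 members. A heat shock element was searched as GAANNTTCNNGAA on either strand, which reads TTCNNGAANNTTC on the other, and an E-box, the site of MYC and MITF-type factors, as CACGTG, which reads the same on both strands. The heat shock element occurred in 0.608% of all genes with a window and in 7 members (11.7%), namely HSPA6, HSPA8, HSPD1, HSP90AA1, HSP90AB1, DNAJA1 and DNAJB6. Only exact matches to these letters were counted, so a member missing here may still hold a less exact element. The E-box occurred in 8.77% of all genes and also in 7 members (11.7%), namely HSPD1, HSPE1, HSPA9, HSPBAP1, DNAJC8, DNAJC12 and DNAJC16. HSPD1 held both, in the windows of different starts, and its heat shock element matches at -245 and -240 are not shown. Positions are counted to the first base of the motif, negative before the start. Capitals mark the heat shock element in the first 4 sequences and the E-box in the last 3; the first covers 120 bases up to the start and the others 30 bases around the motif.
HSP90AA1 (chr14:102087045-102087164, minus strand, element at -88): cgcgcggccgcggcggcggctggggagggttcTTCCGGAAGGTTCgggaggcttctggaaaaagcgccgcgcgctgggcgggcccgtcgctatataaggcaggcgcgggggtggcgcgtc
HSP90AB1 (chr6:44247823-44247852, plus strand, element at -112): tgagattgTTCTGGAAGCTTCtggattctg
HSPA8 (chr11:123062170-123062199, minus strand, element at -55): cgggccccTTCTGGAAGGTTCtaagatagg
DNAJB6 (chr7:157336865-157336894, plus strand, element at -131): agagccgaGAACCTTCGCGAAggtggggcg
HSPE1 and HSPD1 (chr2:197500345-197500374, plus strand, E-box at -22 from HSPE1 and -88 from HSPD1): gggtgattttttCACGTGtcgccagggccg
HSPA9 (chr5:138575403-138575432, minus strand, E-box at -19): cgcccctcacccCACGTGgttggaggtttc
DNAJC16 (chr1:15526807-15526836, plus strand, E-box at -29): acctttaagcgtCACGTGactcccctcggg
HSPD1 and HSPE1 lie head to head on chromosome 2 with 104 bases between their starts, and their E-box is the same 6 bases read from either side. These matches describe the letters of the windows and show no binding.

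The libraries held 13337317 to 22855232 reads, and all levels below are normalized counts, which are reads divided by 1 size factor per library. GRASLND, the gene targeted, was measured at 309, 329.9 and 289.7 in shlacZ, 175 and 131 in sh4, and 227 and 163 in sh8. All 4 knockdown libraries lay below all 3 controls, with a log2 fold change of -0.85 ± 0.19 (SE) for both hairpins together (adjusted p = 0.0402). With sh4 the value was -1.02 ± 0.21 (SE) (adjusted p = 0.00662), and with sh8 alone it was -0.68 ± 0.21 (SE) and did not pass the test (adjusted p = 0.11). The call for both together was lost under 9 of 17 alternatives (another setting of the fit, or 1 library left out), among them the omission of any 1 control library, with an adjusted p of up to 0.182. The melanocytic markers MITF, MLANA, PMEL, TYR, DCT, SOX10 and TYRP1 were all present. Their sum was 135575 to 146343 in shlacZ, 51868 to 59737 in sh4 and 101544 to 104484 in sh8. The sum hides TYR, whose log2 fold change was positive, 0.15 with sh4 and 0.22 with sh8, and not called. The other 6 were negative with each hairpin. Of the fibroblast markers 2 of 6 were listed, with a sum of at most 19.4, and of the keratinocyte markers 1 of 4 (KRT10) with 133 to 206. The leukocyte marker LYZ had 0 to 4.19 in shlacZ, 337 to 492 in sh4 and 5.27 to 7.28 in sh8, while PTPRC and CD3E were not among the genes listed. The part of these shifts in the chaperone values was not tested. Mitochondrially encoded genes took 10.7% to 11.2% of normalized counts in shlacZ and 10.7% to 13.6% in the knockdown libraries. Control replicate 1 was the lowest control for most members, and the counts of calls are given with and without it.

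More chaperone genes had lower than higher values with either hairpin. The 12 members that fell with sh4 were both HSP90 genes, the mitochondrial HSPA9, HSPD1 and HSPE1, the TRiC subunits CCT5, CCT6A and CCT8, HSPA4, HSPA12A, DNAJA2 and DNAJC2. All members together took 1.13% to 1.43% of normalized counts in the control libraries, 0.891% to 1.06% in sh4 and 1.09% to 1.10% in sh8. Of the 66 members, 60 passed the minimum mean of 10 and were tested. With sh4, 12 of the 60 were called lower and 3 higher at an adjusted p under 0.05 (limma), beside 11.9% of all 15420 tested genes called lower, 10.5% called higher and 22.5% called in all. Members were thus called in 15 of 60 cases, close to the share of all genes, and 12 of the 15 calls were downward. Only 3 of the 15 calls also passed an absolute log2 fold change of 1, which is 5.0% of members beside 8.16% of all genes. With sh8, 0 of the 60 were called, beside 2.92% of all genes. An unadjusted p under 0.05 (limma) was reached by 15 members (25.0%), beside 18.5% of all genes. The limma-voom fit on the recovered reads also called 0, beside 2.65% of all genes. When both hairpins were pooled against the control, 2 members were called lower and 1 higher, beside 2.06% of all genes lower, 2.55% higher and 4.61% in all, so the share of members (5.0%) was near that of all genes. That count was 0 without shlacZ replicate 2, 0 without shlacZ replicate 3, 0 without sh4 replicate 1 and 1 without sh4 replicate 2. In the same order, 0.415%, 0.571%, 1.12% and 1.93% of all genes were called. The same contrast taken as the mean of both hairpins in the fit with 3 groups, which does not count the gap between sh4 and sh8 as spread, called 12 members, 10 of them lower, beside 16.4% of all genes.

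**Figure D1:**
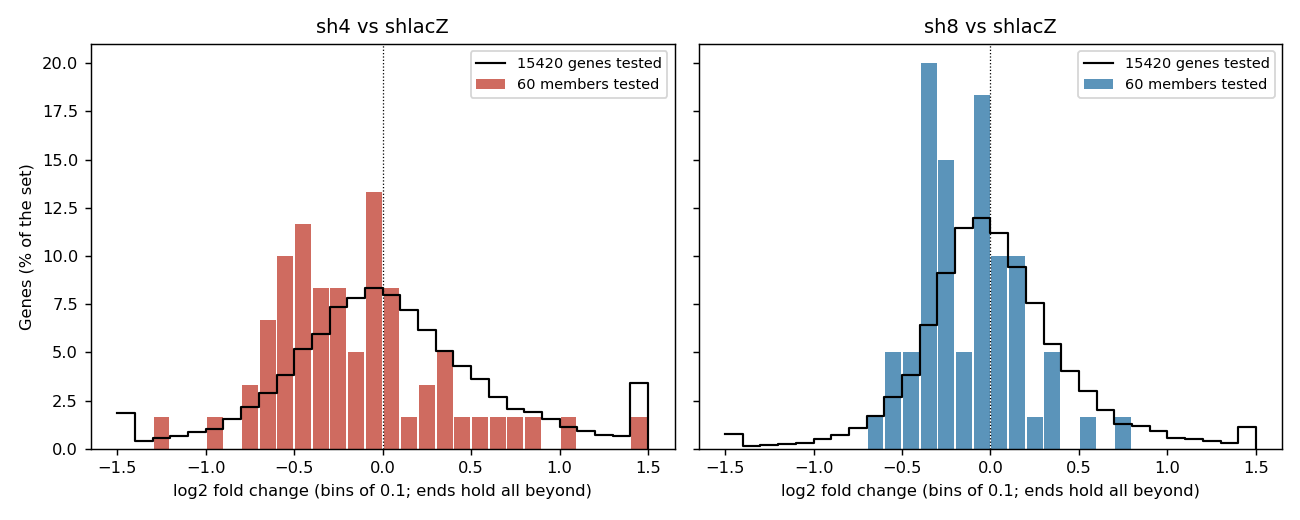
Distribution of log2 fold changes (x axis, bins of 0.1, with all larger changes in the end bins) of the 60 tested members (bars) and of all 15420 tested genes (line), each as a percentage of its set, for sh4 (left) and sh8 (right) against shlacZ. The median of the members was -0.21 for sh4 and -0.14 for sh8, that of all genes -0.01 in both.

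The median log2 fold change of the members was -0.21 with sh4, -0.14 with sh8 and -0.15 for both pooled, whereas that of all tested genes was -0.01 in each. Negative values were seen for 42 of 60 members (70.0%) with sh4 and 42 with sh8, beside 50.6% and 51.2% of all genes. Both comparisons share the 3 control libraries, so their likeness is not independent. Without overlap, all 4 knockdown libraries lay below all 3 controls for 10 of 60 members (16.7%), beside 11.0% of all genes, and above them for 3 (5.0%), beside 10.2% of all genes. No test was made of these shares, and the members concerned are given with their roles below. In bulk samples such as these, fewer cells of a type and less RNA per cell cannot be told apart.

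**Figure D2:**
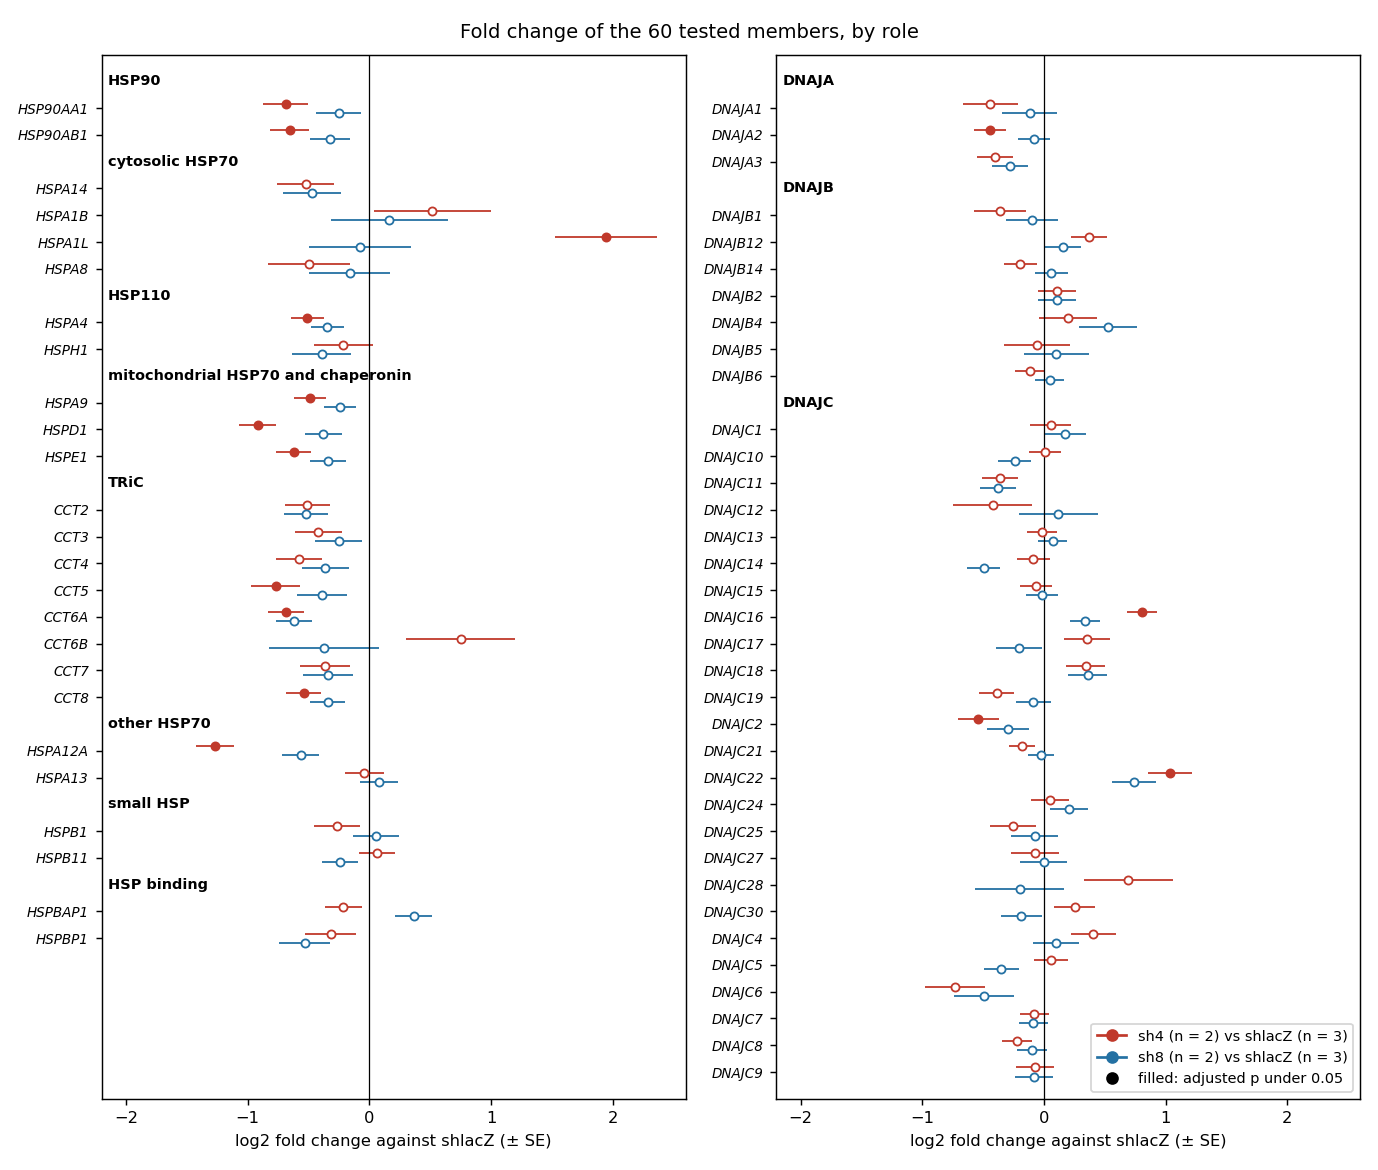
Log2 fold change (x axis) of each of the 60 tested members against shlacZ, with bars for 1 standard error, sorted by role; red is sh4 and blue sh8, and filled points have an adjusted p under 0.05. Filled points are seen only for sh4, 12 to the left of 0 and 3 (HSPA1L, DNAJC16 and DNAJC22) to the right.

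The cytosolic HSP90 genes were the most abundant members and were lower in sh4. HSP90AB1 (ENSG00000096384, chr6:44246166-44253888), the constitutive form, was measured at 39537, 53916 and 49353 in shlacZ, 27051 and 33261 in sh4, and 38075 and 37417 in sh8. Every knockdown library was below every control library, and the log2 fold change was -0.65 ± 0.16 (SE) with sh4 (adjusted p = 0.0176) and -0.32 ± 0.16 (SE) with sh8 (adjusted p = 0.325). HSP90AA1 (ENSG00000080824, chr14:102080742-102139699), the stress-inducible form whose heat shock element is printed above, was measured at 31447, 42791 and 42942 in shlacZ, 20259 and 28525 in sh4, and 32957 and 32045 in sh8. Both sh4 libraries were below all controls, while the sh8 libraries overlapped the lowest control. HSP90AA1 fell with sh4 by 0.69 on the log2 scale (SE 0.19, adjusted p = 0.0253), and its value with sh8 was -0.25 ± 0.19 (SE) (adjusted p = 0.515). The sh4 calls of both genes were lost without the variance trend, without shlacZ replicate 2, without shlacZ replicate 3 and without sh4 replicate 1, with an adjusted p of up to 0.242 for HSP90AA1 and 0.168 for HSP90AB1. The ratio of HSP90AA1 to HSP90AB1 stayed within 0.749 to 0.870 over the 7 libraries, so the inducible and the constitutive form kept nearly the same proportion. Together they made up 0.422% to 0.519% of normalized counts in shlacZ, 0.290% to 0.362% in sh4 and 0.392% to 0.404% in sh8.

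**Figure D3:**
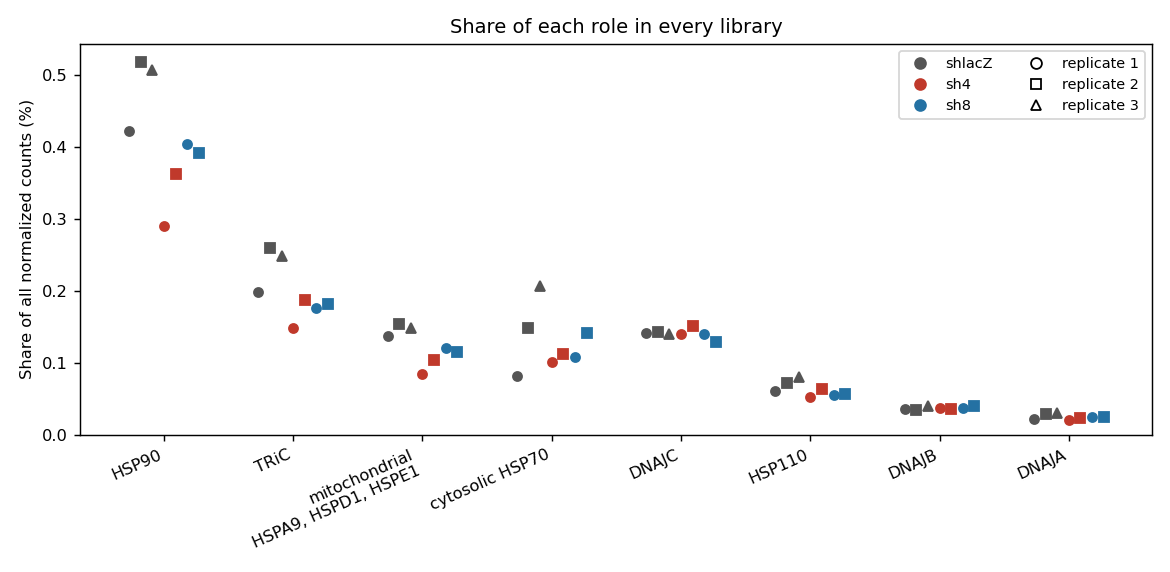
Share of all normalized counts (y axis, %) taken by the members of each role in each of the 7 libraries; colour marks the group and shape the replicate number. The HSP90, TRiC and mitochondrial shares lay lower in all knockdown libraries than in all shlacZ libraries, while cytosolic HSP70, DNAJB and DNAJC shares overlapped.

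The mitochondrial HSP70 and the HSPD1-HSPE1 chaperonin were lower in all 4 knockdown libraries than in all controls, beside 11.0% of all genes. All 3 genes were called lower with sh4, beside 11.9% of all genes. HSPD1 (ENSG00000144381, chr2:197486584-197516737), which forms the folding chamber, was measured at 13388, 17482 and 16712 in shlacZ, 7387 and 9449 in sh4, and 12166 and 12065 in sh8. It had the lowest sh4 value of the abundant members, -0.92 ± 0.15 (SE) (adjusted p = 0.00275), and -0.38 ± 0.15 (SE) with sh8 (adjusted p = 0.222). Its lid HSPE1 (ENSG00000115541, chr2:197500140-197503449), the head-to-head neighbour, was measured at 1498, 1824 and 1717 in shlacZ, 955 and 1239 in sh4, and 1354 and 1295 in sh8. HSPE1 fell with sh4 by 0.62 on the log2 scale (SE 0.15, adjusted p = 0.0135), with a value of -0.34 ± 0.15 (SE) for sh8 (adjusted p = 0.25). Within libraries the ratio of HSPD1 to HSPE1 counts was 8.94 to 9.73 in shlacZ, 7.63 to 7.73 in sh4 and 8.99 to 9.32 in sh8, so both sh4 libraries lay below the other 5. GENCODE places the outer transcripts of both genes over each other on opposite strands. The libraries were stranded, so this overlap matters only if the strand was not used in quantification, which was not checked. A readthrough gene joins HSPE1 to MOB4, so a part of the HSPE1 reads is uncertain.

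HSPA9 (ENSG00000113013, chr5:138553756-138575675), the mitochondrial HSP70, was measured at 8214, 9339 and 8438 in shlacZ, 5507 and 6901 in sh4, and 7744 and 6913 in sh8. No knockdown library reached the lowest control, and HSPA9 fell with sh4 by 0.49 on the log2 scale (SE 0.13, adjusted p = 0.025), beside -0.24 ± 0.13 (SE) with sh8 (adjusted p = 0.369). In these 3 genes the sh8 values had the sign of the sh4 values and were nearer to 0, but the differences between hairpins did not pass the test. The one of HSPD1 was -0.54 ± 0.17 (SE) (95% interval -0.91 to -0.16, adjusted p = 0.0846). A wider list of 10 members with mitochondrial proteins, which adds the J proteins DNAJA3, DNAJC4, DNAJC11, DNAJC15, DNAJC19, DNAJC28 and DNAJC30, had 3 called lower and 0 higher with sh4, beside 11.9% of all genes lower and 10.5% higher, and 0 called with sh8, beside 2.92%. Its median was -0.38 and -0.22, beside -0.01 for all genes in each. DNAJC11, a protein of the outer mitochondrial membrane, was the only one of these J proteins without overlap, at 2486, 3047 and 2688 in shlacZ, 2033 and 2216 in sh4, and 2409.5 and 1830.2 in sh8, with -0.37 ± 0.13 (SE) for both hairpins (adjusted p = 0.122).

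**Figure D4:**
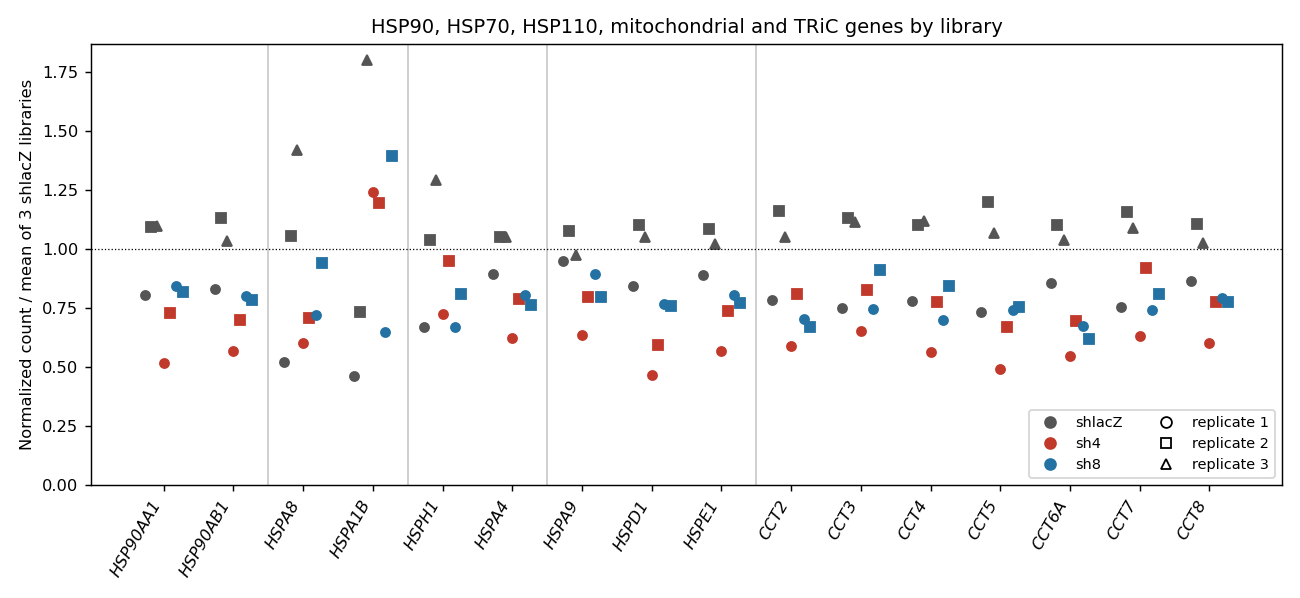
Normalized count of 16 core chaperone genes in each library divided by the mean of the 3 shlacZ libraries (y axis); grey lines part HSP90, cytosolic HSP70, HSP110, mitochondrial and TRiC genes. Control replicate 1 (grey circle) is the lowest control for each gene shown. The sh4 libraries (red) are lower than all controls for HSPD1, HSPE1, HSPA9, HSP90AA1, HSP90AB1, HSPA4, CCT4, CCT5, CCT6A and CCT8. They overlap the controls for HSPA8, HSPA1B, HSPH1, CCT2, CCT3 and CCT7.

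The ubiquitous TRiC subunits CCT2, CCT3, CCT4, CCT5, CCT6A, CCT7 and CCT8 had negative values with both hairpins, 7 of 7 in each. Of all genes, 50.6% were negative with sh4 and 51.2% with sh8, and both comparisons share the 3 controls. With sh4, CCT5, CCT6A and CCT8 were called lower, beside 11.9% of all genes. With sh8 none was called, beside 2.92% of all genes. The median over these 7 was -0.54 with sh4 and -0.36 with sh8, beside -0.01 for all genes in each. CCT6A (ENSG00000146731, chr7:56051685-56063989) was the subunit that also passed the test for both hairpins pooled, and it was measured at 6280.1, 8073 and 7629 in shlacZ, 4024 and 5093 in sh4, and 4952 and 4548 in sh8. All 4 knockdown libraries were below all 3 controls, with -0.65 ± 0.13 (SE) pooled (adjusted p = 0.029, lost under 5 of 17 alternatives), -0.69 ± 0.15 (SE) with sh4 (adjusted p = 0.00909) and -0.62 ± 0.15 (SE) with sh8 (adjusted p = 0.0563). CCT5 (ENSG00000150753, chr5:10249929-10266389) was the subunit with the most reads, at 8226, 13473 and 11975 in shlacZ, 5529 and 7507 in sh4, and 8316 and 8493 in sh8. It had the lowest value of the 7 with sh4, -0.77 ± 0.20 (SE) (adjusted p = 0.0233), but the lowest control overlapped both sh8 libraries.

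CCT8 was measured at 5017, 6428 and 5963 in shlacZ, 3503 and 4503 in sh4, and 4613 and 4498 in sh8 and fell with sh4 by 0.54 on the log2 scale (SE 0.15, adjusted p = 0.0252). The lowest of its 4 knockdown libraries, sh4 replicate 1, lay far from the other 3. Of the remaining subunits, CCT2 was -0.51 ± 0.18 (SE) with sh4 and -0.52 ± 0.18 (SE) with sh8 (adjusted p = 0.0719 and 0.168). CCT3 was -0.42 ± 0.19 (SE) and -0.25 ± 0.19 (SE), CCT4 -0.58 ± 0.19 (SE) and -0.36 ± 0.19 (SE), and CCT7 -0.37 ± 0.20 (SE) and -0.34 ± 0.20 (SE), in the same order, and none of these passed the test. TCP1, the eighth subunit of the ring, which the symbols did not take in, was measured at 4743, 7074 and 7017 in shlacZ, 3329 and 4834 in sh4, and 4752 and 4961 in sh8, and its value with sh4 was -0.62 ± 0.20 (SE) (adjusted p = 0.051). CCT6B, the testis form of the sixth subunit, had few reads, at 39.2, 24.1 and 13.9 in shlacZ, 44.04 and 37.3 in sh4, and 22.4 and 14.6 in sh8.

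TRiC holds each subunit in equal number, so the levels per transcript length were compared among the 7 subunits. As a share of their summed per-length level, CCT5 took 17.2% to 19.5% in shlacZ, 15.7% to 16.1% in sh4 and 18.4% to 18.8% in sh8. CCT6A took 14.9% to 16.7% in shlacZ, 13.9% to 14.6% in sh4 and 12.5% to 14.2% in sh8. Both sh4 libraries lay below the other 5 for CCT5, and all knockdown libraries below the controls for CCT6A, while CCT7 moved the other way with 8.95% to 9.56% in shlacZ and 10.2% to 11.2% in sh4. Shares of one whole are tied to each other, and no test was made on them.

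Of the cytosolic HSP70 genes, none was called lower, beside 11.9% of all genes with sh4 and 1.54% with sh8. HSPA8, the constitutive and most abundant one, varied more among the controls than between the group means. HSPA8 (ENSG00000109971, chr11:123057489-123063230) was measured at 13218, 26713 and 35977 in shlacZ, 15278 and 17902 in sh4, and 18297 and 23805 in sh8. The knockdown libraries all lay within the range of the controls, and the values were -0.50 ± 0.34 (SE) with sh4 (adjusted p = 0.321) and -0.16 ± 0.34 (SE) with sh8 (adjusted p = 0.844). HSPA1B (ENSG00000204388, chr6:31827738-31830254), the classical heat-inducible HSP70, was measured at 369, 583 and 1435 in shlacZ, 988 and 952 in sh4, and 518 and 1109 in sh8. Its near-identical copy HSPA1A (ENSG00000204389, chr6:31815543-31817946) was listed at 0 to 6.09, so the division of reads between both is uncertain. Their sum was 369 to 1441 in shlacZ and 518 to 1114 in the knockdown libraries, and no difference was detectable within this spread. HSPA14, a ribosome-associated HSP70, was measured at 203, 312 and 279 in shlacZ, 167 and 196 in sh4, and 227 and 156 in sh8, and its value for both hairpins was -0.50 ± 0.20 (SE) (adjusted p = 0.17).

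HSPA1L (ENSG00000204390, chr6:31809619-31815283), an HSP70 best known from testis and lying next to HSPA1A on the opposite strand, was the cytosolic HSP70 that was higher with sh4. It was measured at 14.4, 7.33 and 11.3 in shlacZ, 45.2 and 42.5 in sh4, and 9.23 and 10.9 in sh8, so the sh4 libraries stood above the other 5, which overlapped. These are few reads, and a counting error weighs on them. HSPA1L rose with sh4 by 1.94 ± 0.42 (SE) on the log2 scale (adjusted p = 0.00956), its value with sh8 was -0.08 ± 0.42 (SE) (adjusted p = 0.944), and the difference between the hairpins was 2.02 ± 0.46 (SE) (adjusted p = 0.0286).

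The HSP110 exchange factors gave a divided result. HSPA4 was measured at 6759, 7969 and 7962 in shlacZ, 4705 and 5974 in sh4, and 6112 and 5767 in sh8, below all controls in every knockdown library. It fell with sh4 by 0.51 on the log2 scale (SE 0.14, adjusted p = 0.0243), with -0.34 ± 0.14 (SE) for sh8 (adjusted p = 0.215). HSPH1, the heat-inducible one, was measured at 3454, 5350.2 and 6660.2 in shlacZ, 3746 and 4909 in sh4, and 3453 and 4174 in sh8, and control replicate 1 lay within 1 count of the lowest knockdown library. Its values were -0.21 ± 0.24 (SE) with sh4 and -0.39 ± 0.24 (SE) with sh8 (adjusted p = 0.57 and 0.434).

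HSPA12A (ENSG00000165868, chr10:116671192-116850251), a distant relative of HSP70 with an altered ATPase domain, showed the most negative value of all tested members with sh4 and for both hairpins pooled. It was measured at 1734, 1326 and 1242 in shlacZ, 593 and 585 in sh4, and 989.9 and 929 in sh8. The groups did not overlap, sh8 lying between shlacZ and sh4, and unlike most members control replicate 1 was its highest control. The log2 fold change was -0.92 ± 0.22 (SE) pooled (adjusted p = 0.0435), -1.27 ± 0.15 (SE) with sh4 (adjusted p = 0.000566) and -0.56 ± 0.15 (SE) with sh8 (adjusted p = 0.085). The pooled call was lost under 9 of 17 alternatives, among them both other scalings and the omission of any 1 control or sh4 library, with an adjusted p of up to 0.161. The call with sh4 was lost under none of the 17 alternatives. The melanocytic marker sums given above, though not TYR by itself, lay in the same order of groups, with sh8 between shlacZ and sh4. Their part in the result was not tested.

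Of the 37 J proteins 35 were tested. DNAJC16 and DNAJC22 were called higher with sh4 and DNAJA2 and DNAJC2 lower, beside 22.5% of all genes called, and 0 were called with sh8, beside 2.92% of all genes. DNAJC22 (ENSG00000178401, chr12:49346888-49357546), a J protein of the membrane, was measured at 101, 102 and 92.2 in shlacZ, 203 and 202 in sh4, and 169 and 160.2 in sh8. All knockdown libraries lay well above the controls, whose highest value was 1.10 times the lowest. DNAJC22 was the one member called higher for both hairpins pooled, by 0.89 ± 0.17 (SE) (adjusted p = 0.0265, lost under 5 of 17 alternatives), with 1.04 ± 0.18 (SE) for sh4 (adjusted p = 0.00343) and 0.74 ± 0.18 (SE) for sh8 (adjusted p = 0.0617). DNAJC16 (ENSG00000116138, chr1:15526813-15592379), a transmembrane J protein of the ER, was measured at 843, 769.9 and 932 in shlacZ, 1469 and 1490.5 in sh4, and 1056 and 1077 in sh8. Its groups did not overlap either, and it rose with sh4 by 0.81 ± 0.12 (SE) (adjusted p = 0.00186), beside 0.33 ± 0.12 (SE) with sh8 (adjusted p = 0.189). DNAJC18 was the third member with all knockdown libraries above all controls, at 181, 178 and 176 in shlacZ, 224 and 228 in sh4, and 239.9 and 218 in sh8, and its pooled value was 0.35 ± 0.14 (SE) (adjusted p = 0.169).

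The class A J proteins are the closest relatives of bacterial DnaJ and the main partners of HSP70 in folding. DNAJA2 was measured at 1062, 1287 and 1267 in shlacZ, 832 and 933 in sh4, and 1141 and 1126 in sh8 and fell with sh4 by 0.45 on the log2 scale (SE 0.13, adjusted p = 0.0357), while the sh8 libraries lay within the controls. DNAJA1, which is heat-inducible, was -0.44 ± 0.23 (SE) with sh4 and -0.12 ± 0.23 (SE) with sh8, and the mitochondrial DNAJA3 was -0.40 ± 0.15 (SE) and -0.28 ± 0.15 (SE), none of which passed the test. Among class B genes, 0 of 7 were called with either hairpin, beside 22.5% of all genes with sh4 and 2.92% with sh8. DNAJB1, the heat-inducible partner of HSP70, was measured at 1106, 1616 and 1980.0 in shlacZ, 1139.5 and 1234 in sh4, and 1267 and 1598 in sh8, with the knockdown libraries inside the range of the controls. DNAJB6, which holds back protein aggregation, was -0.12 ± 0.12 (SE) with sh4 and 0.05 ± 0.12 (SE) with sh8. DNAJB4 had the highest sh8 value of its class, 0.53 ± 0.24 (SE) (adjusted p = 0.275).

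Class C genes share only the J domain and serve many tasks. DNAJC2, a J protein at the ribosome, was measured at 921, 1147 and 1038 in shlacZ, 643 and 781 in sh4, and 979 and 719.9 in sh8 and fell with sh4 by 0.54 on the log2 scale (SE 0.17, adjusted p = 0.0455). DNAJC6, the auxilin that strips clathrin from vesicles, was low but without overlap at 66.1, 78.6 and 80.03 in shlacZ, 42.9 and 46.3 in sh4, and 52.7 and 52.8 in sh8, and its value with sh4 was -0.73 ± 0.24 (SE) (adjusted p = 0.0571). DNAJC4 had 0.41 ± 0.19 (SE) with sh4 and 0.10 ± 0.19 (SE) with sh8. DNAJC12, a partner of the aromatic amino acid hydroxylases, DNAJC17, a splicing-related J protein, and DNAJC30, a mitochondrial one, had -0.54, 0.56 and 0.44 on the log2 scale for sh4 minus sh8. None of these 3 differences passed the test (adjusted p = 0.414, 0.14 and 0.195).

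Genes of small heat shock proteins had low counts. HSPB1, which holds unfolded proteins for later refolding, was measured at 296, 355 and 404 in shlacZ, 308 and 272 in sh4, and 315 and 416 in sh8, and the groups overlapped. HSPB6 was below the minimum with 6.37 to 14.7, HSPB11 did not pass the test, and CRYAB, a small HSP that the symbols did not take in, was at 0 to 5.27. HSPBP1, an exchange factor of HSP70, was -0.32 ± 0.21 (SE) with sh4 and -0.53 ± 0.21 (SE) with sh8 (adjusted p = 0.314 and 0.217). HSPBAP1, which binds HSPB1, was measured at 747, 573 and 609.8 in shlacZ, 599.7 and 508 in sh4, and 841 and 806 in sh8. Both its sh8 libraries lay above, and the sh4 libraries partly below, the controls, but the difference of -0.58 ± 0.17 (SE) between the hairpins did not pass the test (adjusted p = 0.0695). The 6 members under the minimum were HSPA1A, HSPA2, HSPA6, HSPB6, DNAJA4 and DNAJB13. HSPA6, which is nearly silent without heat, was listed at 0 to 8.26.

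Among members, the control libraries differed most in HSPA1B, HSPA8, HSPH1, DNAJB1 and DNAJA1, all of which but HSPA8 are known as heat-inducible. Over the 54 members and 10770 genes of any kind with a mean of at least 100, the ratio of the highest to the lowest control had a median of 1.28 and 1.26. It was 3.88 for HSPA1B, 2.72 for HSPA8, 1.93 for HSPH1, 1.79 for DNAJB1 and 1.73 for DNAJA1. Of all 10770 genes, 0.241% had a ratio as high as HSPA1B, 0.669% as high as HSPA8 and 3.92% as high as HSPH1. In each of these 5 genes replicate 1 was lowest and replicate 3 highest. Replicate 1 was the lowest control for 41 of the 54 members, beside 54.1% of all such genes. The median log2 difference of the 60 tested members from the control mean was -0.16 in replicate 1, 0.10 in replicate 2 and 0.07 in replicate 3, against -0.21 to -0.14 in the knockdown libraries, so replicate 1 lay inside the range of the knockdown libraries.

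**Figure D5:**
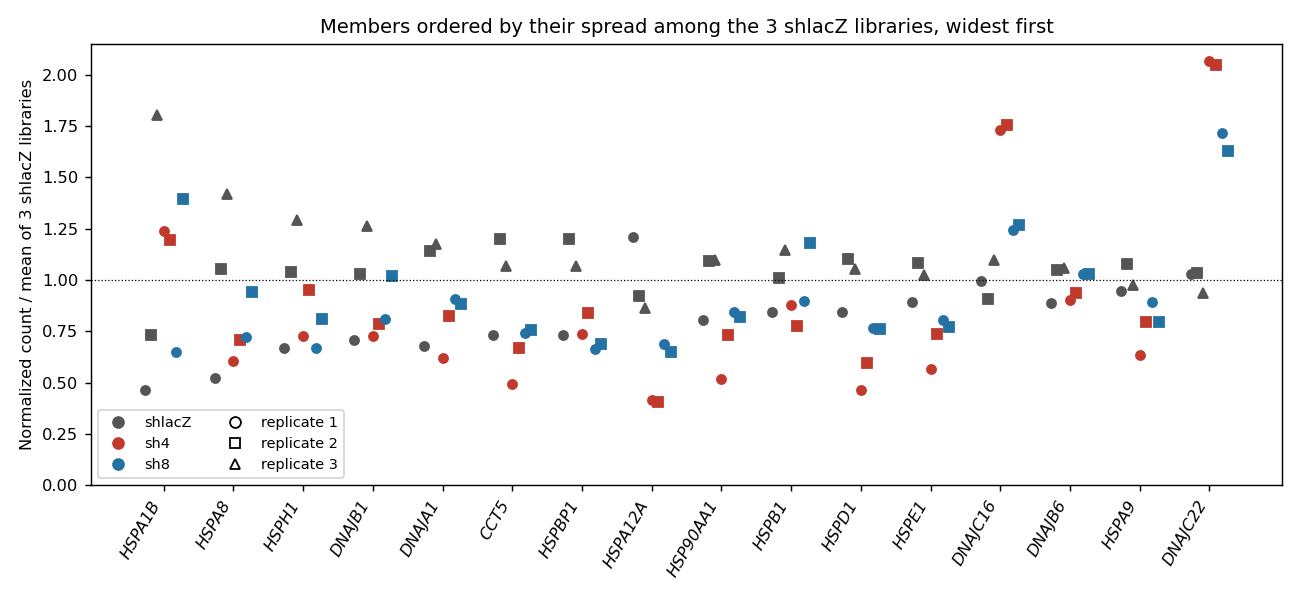
Normalized count of 16 members in each library divided by the mean of the 3 shlacZ libraries (y axis), ordered by the ratio of the highest to the lowest control. HSPA1B, HSPA8, HSPH1, DNAJB1 and DNAJA1 are at the wide end, where the knockdown points overlap the controls. DNAJC22 is at the narrow end without overlap, while DNAJB6, also toward that end, overlaps. A wide control range by itself makes overlap likelier.

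The number of called members depended on single libraries. Without shlacZ replicate 1, 29 members were called with sh4 (26 lower and 3 higher) in place of 15, and 10 with sh8 (9 lower and 1 higher) in place of 0. All 15 sh4 calls were among the 29. Beside these, 31.5% and 10.4% of all tested genes were called without it. All 7 ubiquitous TRiC subunits were then called lower with sh4, from -0.56 for CCT7 to -0.98 for CCT5, and HSPA8 was called at -0.91 (adjusted p = 0.00381). The 10 called with sh8 were CCT2, CCT5, CCT6A, HSPD1, HSPH1, DNAJA3, DNAJC5, DNAJC14 and HSPBP1, which were lower, and DNAJC22, which was higher. Leaving out the other controls lowered the sh4 count to 7 without replicate 2 and 8 without replicate 3, beside 14.6% and 14.9% of all genes, and leaving out sh4 replicate 1 lowered it to 4, beside 10.3%. In each of these 3 cases HSP90AA1, HSP90AB1, HSPA4, HSPA9, CCT5, CCT8, DNAJA2 and DNAJC2 lost their call. HSPD1, HSPA12A, DNAJC16 and DNAJC22 kept theirs with sh4 under all 17 alternatives. No label gives a reason to drop any of these libraries, and the fit with all 7 remains the result reported.

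Between the hairpins, 2 of 60 members differed, beside 7.0% of all genes. HSPA1L was higher and HSPA12A lower in sh4 than in sh8, the latter by -0.70 ± 0.17 (SE) (adjusted p = 0.0355). Both calls ended when any 1 of the 4 knockdown libraries was left out, which leaves 1 library in an arm. Without shlacZ replicate 1 the count was 6, beside 12.8% of all genes. The median difference of the members was -0.12 (sh4 minus sh8), beside -0.01 for all genes. Negative differences were seen for 40 of 60 (66.7%), beside 51.3% of all genes. Without sh4 replicate 1, the member median was 0.00 to 2 decimals, so the difference in the median rested on that library. For HSP90AA1 the interval of the difference was -0.89 to 0.02, for HSPE1 -0.64 to 0.07 and for CCT6A -0.43 to 0.29, and each interval includes 0.

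Partner genes that work with these chaperones were taken from lists of the pathway. Of 4 genes for heat shock factors and their binding protein, 0 were called in any comparison. HSF1, the main activator of heat shock genes, was measured at 795, 1021 and 975 in shlacZ, 1014 and 916 in sh4, and 888 and 926 in sh8, and HSF2, its relative, was -0.11 ± 0.14 (SE) for both hairpins. The shares of all genes called, to set beside the counts that follow, were 11.9% lower and 10.5% higher with sh4, 2.92% in all with sh8, and 2.06% lower and 2.55% higher for both pooled. Of the 24 co-chaperones of HSP70 and HSP90, 6 were called lower and 0 higher with sh4, 0 were called with sh8, and 1 was called lower for both pooled. That one was CACYBP, an adaptor that binds the ubiquitin ligase SIAH1, at 2604, 2911 and 2992 in shlacZ, 1551 and 1997 in sh4, and 2076 and 1900.2 in sh8, with -0.60 ± 0.13 (SE) (adjusted p = 0.0346), a call lost under 7 of 17 alternatives. BAG3, a heat-inducible exchange factor that sends HSP70 clients to autophagy, was measured at 565, 732 and 993 in shlacZ, 706 and 931 in sh4, and 526 and 809 in sh8 and overlapped. BAG2, singled out after its values were seen because it had the lowest co-chaperone value, was measured at 764, 1081 and 1099 in shlacZ, 329.8 and 432 in sh4, and 804 and 856 in sh8. The value of BAG2 was -1.36 ± 0.19 (SE) with sh4 (adjusted p = 0.00108), and it differed between the hairpins by -1.13 ± 0.21 (SE) (adjusted p = 0.011). Its call between the hairpins was lost under 5 of 17 alternatives, among them the omission of any 1 knockdown library. The sh4 call of BAG2 was lost under none.

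Of 9 genes for TCP1 and prefoldin, which hands actin and tubulin to TRiC, 1 was called lower with sh4, namely PFDN2, at -0.71 ± 0.18 (SE) (adjusted p = 0.0196), and 0 with sh8. The PFDN2 call was lost under 5 of 17 alternatives. Of the 11 mitochondrial partners, 3 were called lower with sh4 and 2 with sh8, and 0 higher. TRAP1, the mitochondrial HSP90, was measured at 1487, 1914 and 1788 in shlacZ, 837 and 979 in sh4, and 961 and 1097 in sh8. All knockdown libraries were well below all controls, with -0.93 ± 0.15 (SE) for sh4 (adjusted p = 0.00212) and -0.74 ± 0.15 (SE) for sh8 (adjusted p = 0.0268). LONP1, the protease of the mitochondrial matrix, was measured at 1545, 2019 and 1826 in shlacZ, 1022 and 1051 in sh4, and 1126 and 1128 in sh8. LONP1 likewise did not overlap, with -0.78 ± 0.13 (SE) for sh4 (adjusted p = 0.00309) and -0.66 ± 0.13 (SE) for sh8 (adjusted p = 0.03). The sh8 call of TRAP1 was lost under 5 of 17 alternatives and that of LONP1 under 8 of 17, for both among them the omission of either sh8 library or of shlacZ replicate 2 or 3, while their sh4 calls were lost under none. AFG3L2, a protease of the inner membrane, was the third with sh4, at -0.60 ± 0.14 (SE) (adjusted p = 0.0119), a call lost under 2 of 17 alternatives. Of 6 tested genes of other heat-inducible kinds, 2 were called lower and 1 higher with sh4 and 0 with sh8. Of the 5 ER chaperones left out, DNAJC3 was called higher with sh4 and for both pooled, at 0.56 ± 0.12 (SE) (adjusted p = 0.0315), and 0 were called lower. That pooled call was lost under 7 of 17 alternatives.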

How the data were processed

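RNA from 7 libraries of 501Mel cells was depleted of ribosomal RNA and made into stranded libraries. According to the methods of the study, the authors trimmed reads with Cutadapt, aligned them to hg38 with STAR, quantified genes with Salmon and passed the counts to DESeq2; versions are not given in the sources used here. The deposited table is named as normalized counts, and that these are counts divided by 1 size factor per library was read from the values. Within a tolerance of 0.1, 100% of values were whole multiples of 1 read, which gave the depth of 13337317 to 22855232 reads. Scaling by size factors treats the bulk of genes as level, so a shift shared by all genes would not show. Coordinates are from GENCODE release 44 (hg38) and promoter windows from RefSeq (GRCh38.p14).

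limma 3.58.1 (R 4.3.3, empirical Bayes with a variance trend) was run on log2(normalized count + 1) for the 15420 genes whose mean over the libraries reached 10, with Benjamini-Hochberg adjustment over all of them. Fold changes on this scale understate low genes. Both hairpins pooled (n = 4) were set against shlacZ (n = 3) in a fit with 2 levels; single hairpins came from a fit with 3 groups. Called means an adjusted p under 0.05. The code was tested on simulated data. Members and gene lists were chosen with earlier results of these data known. Named are GRASLND, the core members, those with a mean of at least 50 and the highest or lowest values, members called for both hairpins pooled, and partner genes so called with HSF1, HSF2, TCP1, TRAP1 and BAG3. HSPA1L, HSPA14, DNAJC2, DNAJC11, BAG2, PFDN2, AFG3L2 and DNAJC3 were named after their values were seen. One marker gene is not reported here. Per-length levels used the canonical transcript. Alternatives changed the pseudocount, the minimum, the scaling, the variance trend, the fit and the set of libraries.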

Additional observations from a re-analysis of the deposited data

Results flagged for a closer look

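Of 35 named members with values in all 4 knockdown libraries, CCT8 had 1 library far from the rest. The gap between sh4 replicate 1 and its nearest neighbour was 0.896 of the whole range, above the limit of 0.829 for 4 samples, and chance alone flags about 1 such group in 20. The 4 libraries are of 2 hairpins.

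HSPA1L differed between the hairpins, by 2.02 on the log2 scale (sh4 minus sh8, adjusted p = 0.0286, limma). Both sh4 libraries were above both sh8 libraries, on 9.23 to 45.2 normalized counts. HSPA12A differed by -0.70 (adjusted p = 0.0355), with both sh4 libraries below both sh8 libraries.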

How the results depend on the processing

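The counts of called members depended on the spread estimate and on single libraries. For both hairpins pooled (3 members), the count was 1 without a variance trend, beside 0.895% of all genes. It was 12 when the fit kept 3 groups and averaged sh4 with sh8, beside 16.4%. Over the libraries left out in turn it was 0 to 4, beside 0.415% to 7.42%. For sh4 (15), it was 7 without a variance trend, beside 16.2% of all genes. Over the control libraries left out it was 7 (without replicate 2) to 29 (without replicate 1), beside 14.6% and 31.5%. It was lower still without sh4 replicate 1, which leaves 1 library in the arm. For sh8 (0), it was 1 with a minimum mean of 50, 1 with quantile normalization and 1 with upper quartile scaling. In the same order, 4.02%, 3.73% and 3.54% of all genes were called. Over the control libraries left out it was 0 to 10 (without replicate 1), the latter beside 10.4%. For sh4 against sh8 (2), it was 1 with a minimum mean of 50, beside 9.05% of all genes. Without a variance trend it was also 1, beside 3.09%. Over the control libraries left out it was 1 (without replicate 2) to 6 (without replicate 1), beside 5.84% and 12.8%. The member median ran from -0.22 to -0.0009 (without sh4 replicate 1) over all libraries left out. An arm left with 1 library is assumed to vary like the others. Other alternatives kept each count within 1.5 times. The cause was not tested.

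With the replicate block the counts were 0 pooled, 1 for sh8 and 4 for sh4 against sh8. In the same order, 0.272%, 3.72% and 9.51% of all genes were called. Same-numbered libraries correlated at -0.0781 to 0.337 in their deviations from the group means. With 2 libraries per hairpin these deviations mirror each other, so they cannot decide whether the numbers pair the libraries.

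For both hairpins pooled, some log2 fold changes near 0 changed sign, none of them called. DNAJB6 (-0.03) was 0.032 with quantile normalization, 0.016 with upper quartile scaling, 0.010 with the replicate block and -0.12 to 0.010 over the libraries left out. BAG3 (-0.03) was 0.0065 with quantile normalization, 0.019 with upper quartile scaling, 0.18 with the replicate block and -0.23 to 0.18 over the libraries left out. CCT6B was -0.17 with the replicate block and ran from -0.17 to 0.54 over the libraries left out, and DNAJC30 was -0.049 with the block and ran from -0.051 to 0.13. The range over the libraries left out was -0.094 to 0.88 for HSPA1B, -0.030 to 0.21 for HSPBAP1, -0.052 to 0.18 for DNAJC17 and -0.094 to 0.087 for HSF1. Over all alternatives for the named genes, 932 values kept their direction and side of the threshold, 102 lost a call, 11 gained one and 25 changed sign. edgeR and DESeq2 on recovered reads were not run, since the table writes decimal commas and was not declared as reads.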
